A study of Arabidopsis thaliana with 4 samples.

Results

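The AGL17 clade and *AGL12* are root-expressed MADS-box genes of *Arabidopsis thaliana*. The 5 loci were ANR1 (*AGL44*, AT2G14210), AGL16 (AT3G57230), AGL17 (AT2G22630), AGL21 (AT4G37940) and AGL12 (*XAL1*, AT1G71692). They were taken by locus identifier, with earlier results of these data known, from the 28642 loci of one table of RNA-Seq reads. The study compared whole roots of the wild type (WT, accession Wassilewskija, Ws) with those of *atx1setm* to find genes whose transcripts depend on the methyltransferase activity of the histone H3 lysine methyltransferase ATX1. The *atx1setm* line carries an *ATX1* transgene with substitutions in the catalytic SET domain in the *atx1-1* mutant background, so both genotypes share the Ws background and only the mutant lacks the endogenous functional allele. Seedlings grew under long days on plates whose basal medium the labels and the methods give differently, and their age was 10 days by the labels and 8 days by the methods. The labels give no treatment, and the table held 2 biological replicates per genotype, 4 libraries in all, which are called Ws 1, Ws 2, *atx1setm* 1 and *atx1setm* 2 below.

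MADS-box proteins of the MIKC type bind DNA as dimers at CArG boxes through their N-terminal MADS domain. In roots, ANR1 and AGL21 are known for lateral root (LR) growth and development in response to nitrate, hormones and other cues, and AGL16 is the target of the microRNA miR824. AGL17 was first described as a root epidermis gene and also promotes flowering, and AGL12 acts in root meristem proliferation and in the floral transition.

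The start of each reading frame is shown because it encodes the beginning of the MADS domain, which the family shares. The lines below give the first 60 bases of the longest coding sequence of each gene in RefSeq (Columbia, TAIR10.1), 5′ to 3′ on the coding strand, with capitals at each base that differs from ANR1 at the same position. ANR1 starts at chr2:6018841-6018900 on the plus strand, AGL16 at chr3:21177710-21177769 on the plus strand, AGL17 at chr2:9618372-9618431 on the plus strand, AGL21 at chr4:17838562-17838621 on the minus strand and AGL12 at chr1:26954880-26954939 on the minus strand.
ANR1: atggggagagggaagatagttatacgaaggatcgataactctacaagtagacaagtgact
AGL16: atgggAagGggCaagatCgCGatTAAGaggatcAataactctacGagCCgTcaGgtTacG
AGL17: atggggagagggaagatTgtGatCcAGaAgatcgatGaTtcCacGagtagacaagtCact
AGL21: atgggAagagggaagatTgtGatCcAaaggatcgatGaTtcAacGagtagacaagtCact
AGL12: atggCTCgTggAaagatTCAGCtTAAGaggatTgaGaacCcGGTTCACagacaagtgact
Of these 60 bases AGL16 differed from ANR1 at 18, AGL17 at 11, AGL21 at 10 and AGL12 at 24. Over the whole coding sequence AGL17 and AGL21 were the closest pair, with 80.6% identical aligned bases and a longest shared run of 27 bases, and the other 9 pairs lay between 64.9% and 70%. Every stretch of 50 bases, the read length before trimming, in one reference transcript of each member was found in that gene alone (996 to 1369 windows per gene, 0 shared). Full-length reads identical to those transcripts thus have no second exact match in the reference. Matches with mismatches were not searched, so reads placed on a related gene were not tested for. Ws sequence was not analysed here and can differ from Columbia.

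The miR824 site is shown because it is the regulatory sequence for which AGL16 is known. The 5p arm of miR824 (chr4:12625128-12625148, plus strand) is shown with its seed, bases 2 to 8, in capitals, above the AGL16 site (chr3:21180537-21180557, plus strand, within the coding sequence of the longest model), where capitals mark bases that pair with the microRNA.
miR824: uAGACCAUuugugagaaggga
AGL16 site: TCtCTTCTCACAAATGGTCTA
In the AGL16 site 20 of 21 bases paired and the other was a G:U wobble. The best window in each of the other 4 members paired at 11 to 13 of 21 bases. Mature microRNAs are not captured by libraries of polyadenylated RNA, and the methods do not state how RNA was selected for these libraries. The *MIR824* locus itself (AT4G24415) has no exon in the deposited annotation, so that its reads appear as gene reads only. Its gene reads numbered 230 for Ws 1, 132 for Ws 2, 193 for *atx1setm* 1 and 83 for *atx1setm* 2, or 4.90, 3.39, 4.45 and 1.82 RPM (reads scaled to the gene reads of the library). Levels of the genotypes overlapped, with log2 fold change −0.36 (SE 0.43, 95% interval −1.47 to 0.75, adjusted p = 0.793 by edgeR on gene reads). The annotated region is shared with 2 other loci, so its reads cannot be given to the precursor alone.

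The libraries held between 38574293 (Ws 2) and 46439122 (Ws 1) exon reads. For *ATX1*, Ws 1 held 731, Ws 2 388, *atx1setm* 1 475 and *atx1setm* 2 270 exon reads, and the transgene of the mutant maps to the same locus. The *ATX1* difference was −0.53 on the log2 scale (SE 0.34, edgeR adjusted p = 0.701), so exon reads alone do not check the labels. Intron reads of *ATX1* numbered 0 and 2 for Ws against 44 and 43 for the mutant. These reads group the libraries by genotype, but cannot show by themselves which group is the mutant. Among cell type markers, 6 of 6 root hair genes were lower in both *atx1setm* libraries than in both Ws libraries, a separation seen in 20.0% of all tested genes, with a summed RPKM (reads scaled to the length of the exons and to the mapped reads of the library) of 234 and 232 for Ws against 72.5 and 69.9 for the mutant. Hairless epidermis markers were also lower in both *atx1setm* libraries (3 of 3 genes, summed RPKM 42.4 and 35.0 for Ws against 21.1 and 15.7). The 6 meristem and endodermis markers summed to 198 and 212 for Ws against 132 and 183. Most of that sum was *CASP1*, an endodermis gene (144 and 151 against 80.1 and 126). The others did not move together: *PLT1* and *PLT2* were lower in both *atx1setm* libraries, and *WOX5* was higher (2.47 and 2.29 against 6.83 and 5.47). Summed RPKM was 24.1 to 30.4 for root cap, 76.0 to 95.4 for phloem and 150 to 162 for xylem markers over all 4 libraries. The part of the epidermis markers in the values of the 5 members was not tested. In bulk roots, fewer cells of a type and less RNA per cell cannot be told apart.

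All 5 members were transcribed in every library, and all 5 passed the filter on low counts. Levels of different genes were compared per length, as the RPKM of the deposited table. In Ws, AGL21 (16.1 ± 1.36 RPKM, SD, n = 2) and AGL16 (15.4 ± 5.65) were the most abundant, followed by AGL12 (6.42 ± 0.358), AGL17 (4.62 ± 2.1) and ANR1 (1.32 ± 0.442). The ranges of AGL21 (15.1 to 17.1) and AGL16 (11.4 to 19.4) overlapped, so their order was not resolved, while the other neighbours did not overlap in deposited RPKM. In *atx1setm*, AGL16 (14.7 ± 10.6 RPKM) and AGL21 (14.2 ± 7.44) again overlapped, and AGL12 (8.44 ± 0.540, 8.06 to 8.82) came next by its mean but lay inside the range of AGL16 (7.16 to 22.2) and above AGL16 in *atx1setm* 2. Below them came AGL17 (4.09 ± 2.37), and ANR1 (0.853 ± 0.640) was lowest. With gene reads in place of exon reads, AGL16 led AGL21 in Ws and the ranges of AGL12 and AGL17 overlapped there too. Among all tested genes, whose median was 9.45 RPKM, 63.4% had a lower level than AGL21, 63.1% than AGL16, 43.3% than AGL12, 30.9% than AGL17 and 11.7% than ANR1, the rarest of the 5. ANR1 therefore rests on 20 to 84 exon reads per library, and the other members on 99 to 1193.

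Differences between the genotypes were tested for every gene on exon reads. CPM values are exon reads scaled to the library size and the TMM factor, a positive log2 fold change means a higher level in the mutant, and p-values are those of the quasi-likelihood test in edgeR, adjusted over 20714 genes by the Benjamini-Hochberg method. None of the 5 members passed an adjusted p of 0.05, and 0 passed an unadjusted p of 0.05. Over all tested genes 0.0% were called in each direction, and 4.93% were higher and 4.78% lower at the unadjusted p. EdgeR's exact test and DESeq2, which called 1.69% and 1.46% of genes higher and 2.23% and 1.75% lower, also called 0 of the 5. With 2 libraries per genotype, p-values set the genotype difference against the spread between 2 biological replicates. That spread is estimated per gene and drawn toward the one over all tested genes. The sources do not say how the replicates were kept apart.

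AGL12, a regulator of cell proliferation in the root meristem, was the member with the most positive difference. Ws yielded 339 and 260 exon reads and the mutant 378 and 435, or 6.87, 6.67, 8.10 and 11.3 CPM. Both *atx1setm* libraries lay above both Ws libraries, and AGL12 was the only member without overlap. Such a separation was seen in 19.6% of all tested genes in this direction and in 20.0% in the other. The means were 6.77 ± 0.145 CPM in WT and 9.70 ± 2.26 in the mutant (SD, n = 2 in each case), and the log2 fold change was 0.52 (SE 0.29, 95% interval −0.23 to 1.26, adjusted p = 0.672 by edgeR). The interval of the fold ran from 0.855 to 2.40, which includes 1.

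ANR1, the nitrate-linked LR regulator, was the member with the most negative difference and the widest interval. Only 84 and 43 exon reads came from Ws and 62 and 20 from the mutant, or 1.70, 1.1, 1.33 and 0.520 CPM. *atx1setm* 2 was the lowest library and *atx1setm* 1 lay between the Ws libraries, so the genotypes overlapped. The means were 1.40 ± 0.425 CPM in WT and 0.924 ± 0.572 in the mutant, and the log2 fold change was −0.60 (SE 0.57, interval −2.05 to 0.86, adjusted p = 0.757 by edgeR). At this depth, folds from 0.241 to 1.82 were inside the interval.

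AGL16, the miR824 target, had the most reads of the 5 and the difference nearest to 0. Ws gave 1126 and 549 exon reads and *atx1setm* gave 1193 and 404, or 22.8, 14.1, 25.6 and 10.5 CPM. The *atx1setm* libraries were the highest and the lowest of the 4. The means were 18.5 ± 6.19 CPM in WT and 18 ± 10.7 in the mutant, and the log2 fold change was −0.03 (SE 0.50, interval −1.33 to 1.26, adjusted p = 0.983 by edgeR). A fold of 0.399 to 2.39 is compatible with that interval.

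AGL17, which also promotes flowering, was represented by 258 and 110 exon reads for Ws against 225 and 99 for the mutant, or 5.23, 2.82, 4.82 and 2.57 CPM. Within each genotype the libraries differed more than the genotypes did within a replicate number. The means were 4.03 ± 1.70 CPM in WT and 3.70 ± 1.59 in the mutant, and the log2 fold change was −0.12 (SE 0.48, interval −1.37 to 1.12, adjusted p = 0.932 by edgeR).

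AGL21, an LR regulator that acts with auxin, was represented by 573 and 422 exon reads for Ws against 603 and 291 for *atx1setm*, or 11.6, 10.8, 12.9 and 7.56 CPM. The Ws libraries were close together and lay between the *atx1setm* libraries. The means were 11.2 ± 0.562 CPM in WT and 10.2 ± 3.79 in the mutant, and the log2 fold change was −0.13 (SE 0.34, interval −1.0 to 0.73, adjusted p = 0.897 by edgeR).

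**Figure D1:**
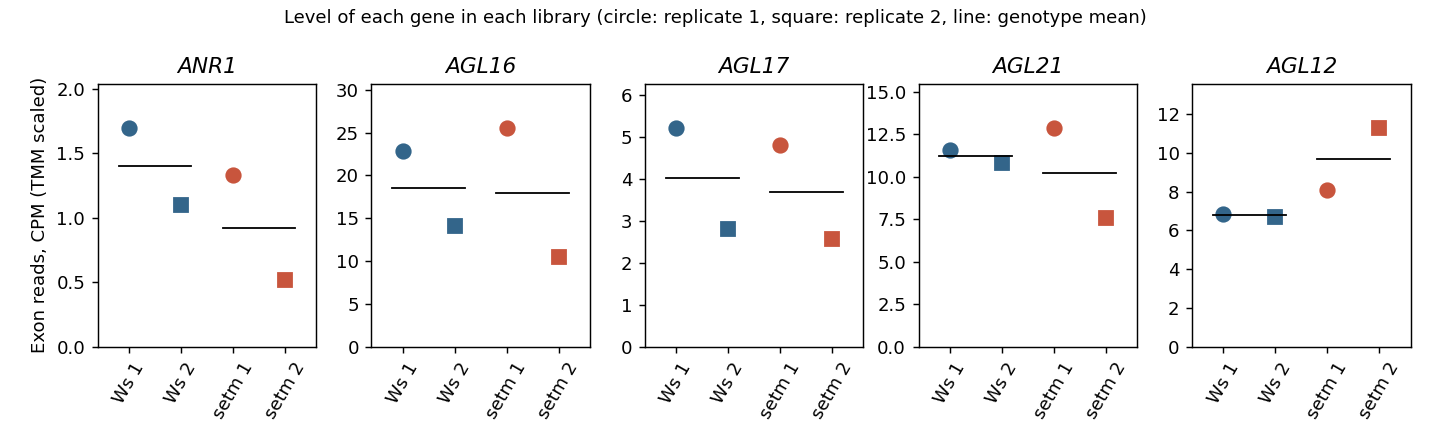
Exon reads of each member in each library, in CPM scaled by TMM, with a separate vertical axis per gene that starts at 0, circles for replicate 1, squares for replicate 2 and lines for the mean of each genotype (setm is *atx1setm*). In the 4 AGL17-clade genes the replicate 1 libraries lie above the replicate 2 libraries of both genotypes, and in AGL12 both *atx1setm* libraries (8.10 and 11.3 CPM) lie above both Ws libraries (6.87 and 6.67 CPM).

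Leaving out 1 library turned the sign of 3 members. Without Ws 1 the log2 fold change was 0.35 for AGL16 and 0.39 for AGL17, and without *atx1setm* 2 it was 0.49 for AGL16, 0.28 for AGL17 and 0.22 for AGL21. ANR1 kept a negative value in all 14 alternatives (−1.44 to −0.06) and AGL12 a positive one (0.28 to 0.74). No member was called in any of the 70 resulting tests, whose lowest adjusted p was 0.0947, and the 3 with an unadjusted p under 0.05 (ANR1 0.0289, AGL16 0.0287 and AGL12 0.0371) all came from leaving out *atx1setm* 1. A fit without 1 library has a single library in that genotype, which is assumed to vary like the other genotype, so its p-values take their spread from that genotype alone.

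**Figure D2:**
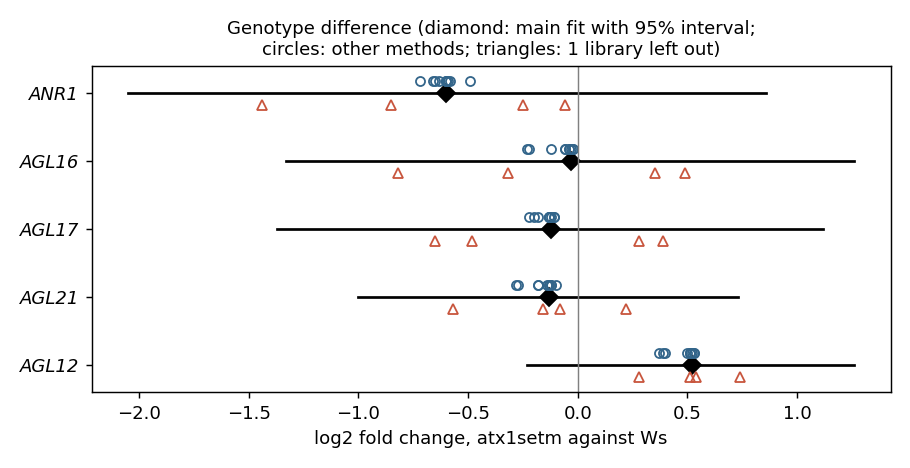
Log2 fold change of each member, *atx1setm* against Ws, with diamonds and lines for the quasi-likelihood fit and its 95% interval, circles for other methods and triangles for fits without 1 library. All 5 lines cross 0, and the triangles of AGL16 and AGL17 span it most widely.

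The 4 AGL17-clade genes shared a pattern across libraries that did not follow the genotype. In ANR1, AGL16, AGL17 and AGL21, both replicate 1 libraries were above both replicate 2 libraries in CPM, and AGL12 was the exception. This arrangement held in 27.2% of all tested genes, and the opposite one in 25.5%. It was not particular to the clade, since 7 of 22 other tested MADS-box genes had it and 2 had the opposite one. The ratio of replicate 1 to replicate 2 in AGL16 was 1.62 in Ws (exact 95% interval 1.46 to 1.80, counting error only) and 2.44 in *atx1setm* (2.17 to 2.73). In AGL17 it was 1.85 (1.48 to 2.34) and 1.88 (1.47 to 2.40). In ANR1 it was 1.54 (1.06 to 2.29) and 2.56 (1.52 to 4.47). AGL21 had a ratio near 1 in Ws, 1.07 (0.945 to 1.22), and 1.71 in *atx1setm* (1.48 to 1.97). AGL12 differed in direction, with 1.03 in Ws (0.874 to 1.22) and 0.717 in *atx1setm* (0.623 to 0.825). Across genes the spread of replicates was wider in the mutant, with a median absolute difference of 0.276 on the log2 scale in Ws and 0.535 in *atx1setm*. The green shoot markers ran the other way, since 6 of 6 were higher in both replicate 2 libraries, with summed RPKM of 177 in Ws 1, 258 in Ws 2, 115 in *atx1setm* 1 and 267 in *atx1setm* 2. Their part in the replicate pattern was not tested.

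**Figure D3:**
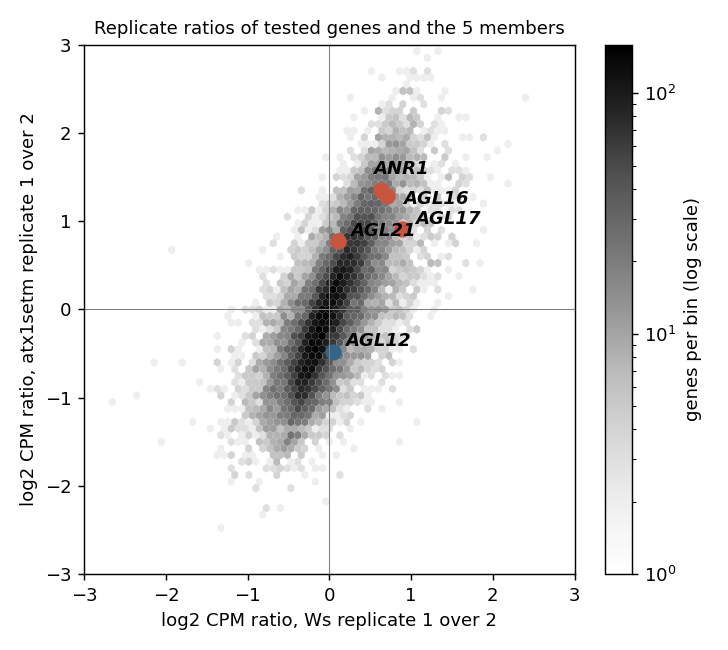
Log2 ratio of replicate 1 over replicate 2 in CPM, for Ws on the horizontal and *atx1setm* on the vertical axis, with tested genes as grey bins (log scale of genes per bin), AGL17-clade genes in red and AGL12 in blue. The 4 red points lie in the upper right, where both ratios exceed 1, and AGL12 lies below the horizontal line at 0.

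Compared within a replicate number, the difference of the genotypes (log2 of CPM, *atx1setm* over Ws) was −0.12 in replicate 1 and −0.13 in replicate 2 for AGL17, the most even of the 5. For AGL16 it was 0.16 and −0.42, for AGL21 0.15 and −0.52, for ANR1 −0.36 and −1.09, and for AGL12 0.24 and 0.76. The sign thus differed between the numbers for AGL16 and AGL21 and was the same for the other 3. Each of these values rests on 2 libraries and has no test of its own.

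AGL16 and AGL17 ran the most alike of the 10 pairs of members. After centring of log2 CPM over the 4 libraries, their root mean square difference was 0.151, and 1.61% of the tested genes were closer to AGL16 than AGL17 was. The RPKM of AGL16 was 3.17, 3.63, 3.86 and 2.97 times that of AGL17 in Ws 1, Ws 2, *atx1setm* 1 and *atx1setm* 2. AGL17 and AGL21, the closest pair in sequence, differed by 0.280, and the pairs with AGL12 by 0.556 to 0.878. Among all tested genes, those nearest to each member by the same measure were AT1G53800, *MOR1* (a microtubule organiser) and AT4G32160 for ANR1, *SDG35*, AT3G03580 and AT5G01110 for AGL16, AT3G47570, AT4G16920 and *KUP9* (a potassium transporter) for AGL17, AT5G03406, AT2G32170 and *EMB2261* for AGL21, and AT1G69800, *APG8H* (an autophagy protein) and ATMG00080 for AGL12. Their differences were 0.00451 to 0.0421. Within 0.1 of a member lay 71 (AGL17) to 425 (AGL21) genes, or 0.343% to 2.05% of those tested.

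Another readout of the same libraries is the share of reads in introns. All 5 members were above the median gene in this share, the AGL17-clade genes by more than AGL12. Pooled over the libraries, reads in introns were 13.2% of the gene reads of AGL16, 7.98% of AGL17, 7.08% of AGL21, 4.57% of ANR1 and 0.843% of AGL12, against a median of 0.614% over 17378 tested genes with more than 1 exon. The share was lower than in AGL16 in 97.2% of those genes, and lower than in AGL12 in 58.7%. It is not scaled to length, and intronic bases ranged from 1401 in AGL12 to 4210 in ANR1. Per base, the density of intron reads was 6.21% to 9.59% of that of exon reads in AGL16 over the libraries. It was 1.69% to 3.43% in AGL17, 1.87% to 3.05% in AGL21, 0.42% to 1.86% in ANR1 and 0.355% to 0.911% in AGL12. The median gene was not scaled this way. By library, the share in AGL16 was 15.0% in Ws 1 (exact binomial 95% interval 13.1 to 17.0), 11.9% in Ws 2 (9.44 to 14.7), 13.1% in *atx1setm* 1 (11.4 to 15.0) and 10.2% in *atx1setm* 2 (7.58 to 13.4). The genotypes overlapped in AGL16. In AGL21 the share was 5.76% for Ws 1, 6.22% for Ws 2, 7.94% for *atx1setm* 1 and 9.06% for *atx1setm* 2, so that both mutant libraries were above both Ws libraries, although the intervals of single libraries overlapped (4.04 to 8.87 in Ws and 5.99 to 12.8 in *atx1setm*). AGL12 was separated the other way, with 1.17% and 1.14% for Ws against 0.787% and 0.458% for the mutant, on 2 to 4 intron reads per library. Of the genes with more than 1 exon, 11.4% had both mutant libraries above both Ws libraries in this share and 15.1% had both below. ANR1 had only 1 to 6 intron reads per library. The exon models in use differ between annotations: within the deposited gene spans, RefSeq holds 1284 more exonic bases than the deposited exon length for AGL16 and 848 more for AGL21, but 99 for AGL17, 24 for ANR1 and 0 for AGL12, so reads counted as intronic in AGL16 and AGL21 may lie in exons of other models. Reads across exon junctions made up 22.6% (AGL16) to 38.8% (ANR1) of exon reads, against a median of 12.4%. The junction share is not scaled to the number or length of exons, and the members hold 7 (AGL12) to 11 (AGL16) exons.

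**Figure D4:**
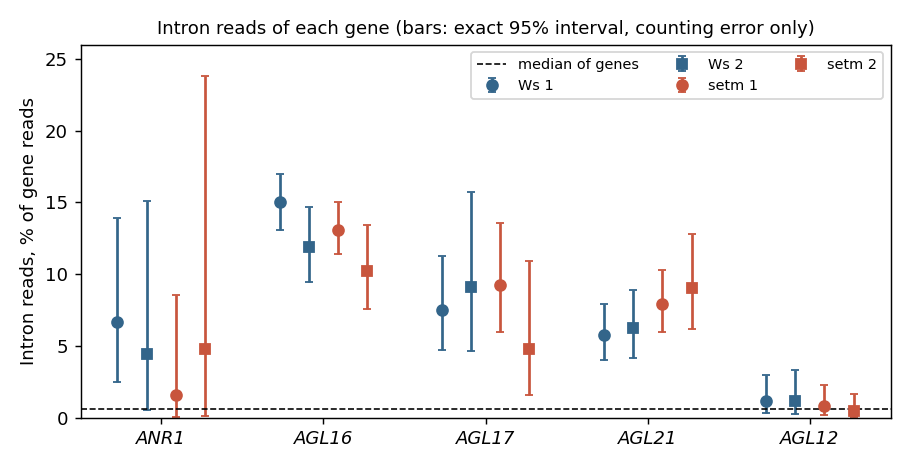
Reads in introns as a percentage of gene reads for each member and library, with exact binomial 95% intervals that cover counting error only, and a dashed line at the median of tested genes with more than 1 exon (0.614%). AGL16 is highest with 10.2% to 15.0%, and AGL12 stays near the dashed line with 0.458% to 1.17%.

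The gene spans of the deposited table (TAIR10, 1-based) were chr2:6018558-6023863 for ANR1, chr3:21177423-21180932 for AGL16, chr2:9618372-9621957 for AGL17, chr4:17835572-17838621 for AGL21 and chr1:26952645-26955127 for AGL12. They hold 9, 11, 8, 8 and 7 exons, and none overlaps another annotated locus. A CArG box, searched on both strands, was found in the 300 bases before the RefSeq gene start of 0 of the 5 genes (for AGL16, AGL17 and AGL21 that start lies upstream of the deposited one), as compared with 2.92% of 27443 promoters of that length.

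Beside the 5 members, 41 other MIKC MADS-box genes were listed, of which 22 passed the filter and 5 had 0 reads in every library. At an unadjusted p of 0.05, 8 were lower and 3 higher in *atx1setm*, against 4.78% and 4.93% of all tested genes, and 0 passed the adjusted p. EdgeR's exact test called 6 lower and 2 higher at an adjusted p of 0.05, and DESeq2 7 and 1. Over all tested genes the exact test called 2.23% lower and 1.69% higher, and DESeq2 1.75% and 1.46%. The median log2 fold change was −0.43 for the other MADS-box genes, −0.12 for the 5 members and −0.01 for all tested genes. The SOC1 clade had low values throughout: 6 of 6 genes had both *atx1setm* libraries below both Ws libraries, a pattern of 20.0% of all tested genes, and an unadjusted p under 0.05. At an adjusted p of 0.05, DESeq2 called 6 of 6 genes of this clade lower and the exact test 5. *AGL14*, a root regulator of auxin transport, counted 1440 and 724 reads for Ws against 44 and 25 for the mutant. Its log2 fold change was −4.90 (SE 0.41, edgeR adjusted p = 0.0837). The paper names this gene and *AGL71* among those downregulated in the mutant. *SOC1*, the floral integrator, had 1593 and 1110 reads against 562 and 420, or −1.40 (SE 0.24, adjusted p = 0.149). *AGL71* had 91 and 28 reads against 1 and 2, a ratio of 38.3 (exact 95% interval 12.8 to 188, counting error only) over pooled libraries. *AGL72* counted 34 and 10 reads for Ws and 0 for both *atx1setm* libraries, at least 14.1-fold lower against a floor of 3 reads over the mutant group. With *AGL72* at that bound, the median of the clade was −3.28, and with its fitted value −3.81.

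Other MADS-box genes outside the AGL17 clade had values in both directions. *AGL79*, of the AP1 and FUL lineage, had 154 and 133 reads against 8 and 3 (log2 fold change −4.65, SE 0.50, adjusted p = 0.0902 by edgeR). The paper also names this gene among those downregulated in the mutant. *AGL15*, an embryo regulator, counted 111 and 94 reads for Ws against 390 and 344 for the mutant (1.89, SE 0.28, adjusted p = 0.125). The floral genes *PI* and *SHP1* had log2 fold changes of 1.73 and 0.95, the FLC relative *MAF5* −1.11 and *AGL18* 0.54, of which *AGL18* had an unadjusted p of 0.0683. Whether the AGL17 clade differed from these clades was not tested.

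**Figure D5:**
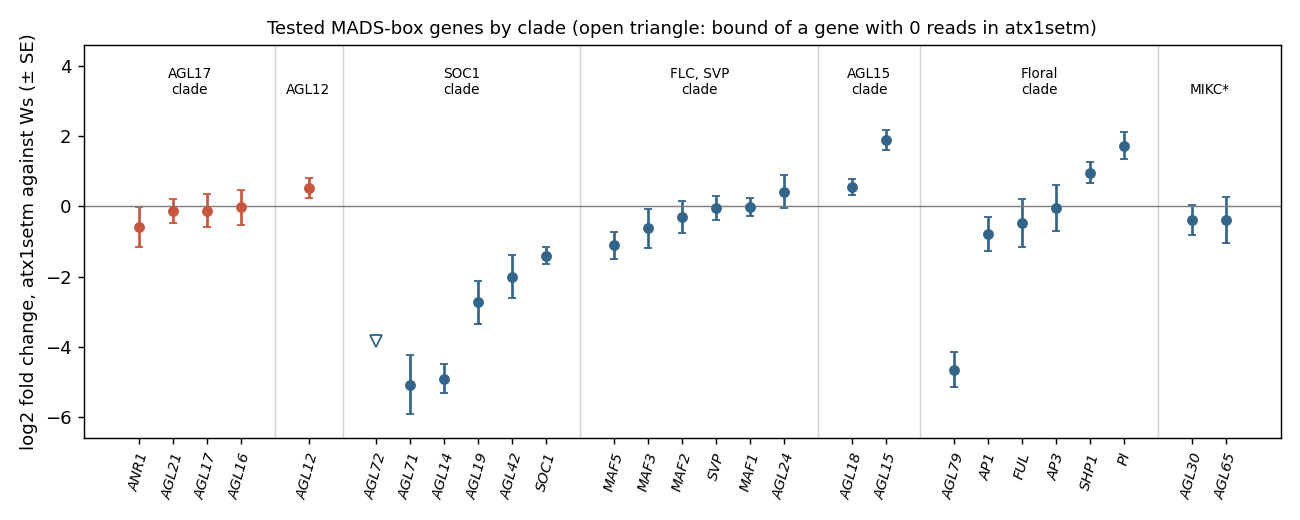
Log2 fold change, *atx1setm* against Ws, with the SE of the fitted model for each tested MADS-box gene, ordered by clade, with the 5 members in red and other genes in blue. The members lie between −0.60 and 0.52, and the SOC1 clade lies at or below −1.40, where the open triangle of *AGL72* is the bound against a floor of 3 reads.

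Genes known to act with the members were described by the same fit. In nitrate signalling, in which ANR1 takes part, 22 genes were tested, of which 1 was higher and 1 lower at an unadjusted p of 0.05, against 4.93% and 4.78% of all tested genes, and 0 at the adjusted p. The exact test and DESeq2 each called 1 of the 22 higher and 0 lower at the adjusted p. Of all tested genes they called 1.69% and 1.46% higher, and 2.23% and 1.75% lower. *NRT2.1*, a high-affinity nitrate transporter, counted 468 and 788 reads for Ws against 5078 and 7323 for the mutant. Its log2 fold change was 3.33 (SE 0.52, adjusted p = 0.131 by edgeR). The paper lists this transporter gene among those upregulated in the mutant. *HRS1*, a nitrate-induced repressor of primary root growth, had −0.55 (SE 0.22, unadjusted p = 0.0496 by edgeR), while the regulators *NLP7* (−0.52, SE 0.28) and *TCP20* (0.61, SE 0.36) did not pass. The list median was −0.30. The range of the list (−0.86 to 3.33, the upper end being *NRT2.1*) held the ANR1 difference of −0.60. It held those of all 5 members (−0.60 to 0.52), so it does not set ANR1 apart.

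Of the genes linked to AGL21 in LR development and seed germination, the auxin biosynthesis gene *YUC5* had −0.96 (SE 0.30, unadjusted p = 0.0243 and adjusted p = 0.397 by edgeR), *YUC8* −0.19 (SE 0.39) and *ABI5* 0.19 (SE 0.33). Of 4 tested genes linked to AGL16, *MYB102* had −1.75 (SE 0.57) with 18 and 24 reads for Ws against 5 and 7 for the mutant, *CYP707A3*, an abscisic acid catabolism gene, −1.0 (SE 0.39), the sodium transporter gene *HKT1* 0.84 (SE 0.48) and the abscisic acid synthesis gene *AAO3* −0.49 (SE 0.51). Of 4 tested cell-cycle genes linked to AGL12, the cyclin genes *CYCB1;1* and *CYCD3;1* had log2 fold changes of 1.29 (SE 0.25) and 1.15 (SE 0.23). Their edgeR p-values were 0.0035 and 0.00417 unadjusted, and 0.19 and 0.198 adjusted. The exact test and DESeq2 called both higher, as they did 1.69% and 1.46% of all tested genes. *CYCA2;3* had −0.23 and *CDT1A* −0.24. These lists were not tested as sets, and their members were chosen with earlier results of these data known.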

How the data were processed

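Single-end reads of 50 cycles were mapped by the authors to TAIR10 and counted per gene in CLC Genomics Workbench after trimming, and FastQC is named in the submitters' processing notes. The mapping settings and the use of strand could not be taken from any source read. The deposited table holds raw counts of exon, gene, intron and junction reads, and RPKM values scaled by the authors to exon length and mapped reads. Columns of the authors' EDGE comparison (fold changes and p-values) were not used, nor were 51 other per-sample columns. Exon counts were filtered with filterByExpr, scaled by TMM (factors 0.855 to 1.09) and tested in edgeR 4.0.16 (quasi-likelihood, legacy fit; R 4.3.3) with genotype as the only term. The common dispersion gave a biological coefficient of variation of 0.303. Other settings were RLE scaling, DESeq2 1.42.0, a block for the replicate number, the exact test of edgeR, library totals, 2 other count filters, gene reads, limma-trend 3.58.1 on log2 RPKM with 0.5 or 0.1 added, and each library left out. Named genes were the members, *ATX1*, up to 4 genes of each list by smallest p (all of short lists) and the 3 genes most alike each member. Members and lists were chosen with earlier results of these data known. Of the loci, 28009 have a reference name, and 2 list genes were left out for a disagreeing symbol. Sequences were read from RefSeq TAIR10.1.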

Additional observations from a re-analysis of the deposited data

How the results depend on the processing

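The replicate numbers are shared by the genotypes, but no source says that they mark a batch, and there are 2 pairs. With the number as a block, 3888 genes were called at an adjusted p of 0.05 by edgeR against 0 without it, and the members had log2 fold changes of −0.66 (ANR1, adjusted p = 0.219), −0.12 (AGL16), −0.13 (AGL17), −0.18 (AGL21) and 0.50 (AGL12, adjusted p = 0.182). Across 20671 genes, the difference of replicate 1 from replicate 2 correlated at 0.693 between the genotypes. DESeq2 called 666 genes, the exact test 812 and the fit with no filter 81, and leaving out 1 library gave 146 to 4566 calls, the highest without *atx1setm* 1, where the spread comes from the Ws libraries alone. In no setting was a member called. The reversals were confined to leaving out a library, with ranges of −0.82 to 0.49 for AGL16, −0.65 to 0.39 for AGL17 and −0.57 to 0.22 for AGL21, and the other 65 of 70 values kept their direction. The number of nitrate genes at an unadjusted p under 0.05 was 2, and it was 10 with the block, 1 with DESeq2, the exact test, RLE scaling or no filter, and 1 to 13 without 1 library. For the other MADS-box genes it was 11, and 7 to 13 without 1 library, the lowest without Ws 1. Library totals moved the median of all genes from −0.01 to −0.104, and limma-trend to −0.109 or −0.127, and the sign of no member changed there. The cause of these shifts was not tested. Precision was limited by 2 libraries per genotype and, for ANR1, by its reads.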
